A study of Mus musculus with 2 samples.

Results

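Bile acid uptake and export transporters are the membrane proteins that carry bile acids into the hepatocyte from sinusoidal blood and out of it again, into bile or back into blood. They were chosen by name as the genes *Slc10a1*, *Slco1a1*, *Slco1a4*, *Slco1b2* and *Slco2b1* for sinusoidal uptake, *Abcb11* and *Abcc2* for canalicular export, and *Abcc3*, *Abcc4* and *Slc51b* for basolateral export. All 10 were found among the 34745 listed genes, with 5 in the uptake route, 2 in the canalicular route and 3 in the basolateral route. RNA was taken from the liver of male mice, 8 to 10 weeks old, on day 3 after 2/3 partial hepatectomy (PH), in which 70% of the liver is removed and the remaining lobes regrow. One library came from miR-182-5p heterozygous knockout mice (labelled miRNA-182 KO), which keep 1 functional allele, and one from wild-type (WT) mice that had the same operation. The sources used here do not give the number of mice in each library, and the day was taken from the study's text rather than from the labels. With 1 library per genotype the differences have no replicate check. No test was therefore made, and every interval is a 95% interval that covers counting error only.

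Hepatocytes clear conjugated bile acids from portal blood mainly through the sodium-dependent carrier NTCP and through sodium-independent organic anion transporting polypeptides (Oatps). The bile salt export pump BSEP then drives them across the canalicular membrane into bile, and this step sets the osmotic flow of bile. When bile acids accumulate, carriers on the basolateral membrane can return them to blood, and the nuclear receptor FXR, which senses bile acids, is known to induce BSEP and to lower bile acid synthesis through its target SHP.

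Reads counted on genes by the authors summed to 13247497 for KO and 13163348 for WT, and the 10 transporters took 0.101% and 0.113% of them. Transcripts of 13 mitochondrial genes made up 51.7% of the counts for KO against 31.0% for WT. Counts were scaled by TMM, which limits the weight of such genes, while the authors' FPKM, which divide each count by gene length, are scaled by the total count with mitochondrial genes included. Scaling by total counts places the median of all tested genes at -0.60 on the log2 scale, against 0.00 with TMM. A log2 fold change below is KO over WT on TMM-scaled counts unless stated otherwise, and FPKM is used to compare genes within a library. Ranks and sums of FPKM depend on the gene lengths that the authors used. The targeted gene *Mir182* was not analysed here, and the labels of genotype rest on the submitters' word. The hepatocyte markers were abundant in both libraries, with *Alb* (albumin) at 339876 counts in KO and 536544 in WT.

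The promoter sequences were examined for the inverted repeat known as IR-1, the element FXR is known to bind in the *Abcb11* promoter. The motif searched was AGGTCANTGACCT, which reads the same on both strands. RefSeq promoter windows (build GRCm38.p6, 250 bases before to 50 after each start) were at hand for 9 of the 10 transporters, in 13 windows, and not for *Abcc3*. The best matches of the 5 genes with at most 3 mismatches are shown because they show how near each promoter comes to the element, with letters equal to the motif in capitals.
*Abcb11*, 1 mismatch, chr2:69342667-69342679, minus strand: AGGcCAtTGACCT
*Slco1b2*, 1 mismatch, chr6:141629430-141629442, plus strand: AGGaCAgTGACCT
*Slc10a1*, 3 mismatches, chr12:80968154-80968166, minus strand: AGGTCAgaaAaCT
*Slc51b*, 3 mismatches, chr9:65422948-65422960, minus strand: gGGTCAtTcACCc
*Slco1a1*, 3 mismatches, chr6:141947091-141947103, minus strand: AtGagAtTGACCT

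The free base N of the motif is in lower case. A second window of *Slc10a1* held another match with 3 mismatches, at chr12:80968905-80968917 (minus strand), which is not shown. Among all 32851 windows, 0.0822% held a match with at most 1 mismatch, 11.4% one with at most 3, and 16.3% the single repeat AGGTCA on either strand. The match began 63 bases before the start in *Abcb11* and 88 bases before it in *Slco1b2*. The *Abcb11* stretch before its start is given whole, since *Abcb11* was the transporter with the largest increase, with the match in capitals.
*Abcb11*, chr2:69342617-69342866, minus strand: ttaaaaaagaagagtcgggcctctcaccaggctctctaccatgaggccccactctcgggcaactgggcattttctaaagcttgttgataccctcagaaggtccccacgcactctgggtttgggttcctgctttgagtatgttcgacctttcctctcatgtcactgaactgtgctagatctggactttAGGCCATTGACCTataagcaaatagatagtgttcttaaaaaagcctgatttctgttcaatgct

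Windows with at most 1 mismatch belonged to 27 genes, of which 11 passed the filter on low counts. Of these 11 genes, 1 was at least 2-fold higher in the KO library, which was *Abcb11* itself, and 2 were at least 2-fold lower. Among all tested genes 9.46% were at least 2-fold higher and 9.94% at least 2-fold lower. With total counts 1 of the 11 was higher and 4 were lower, beside 4.6% and 26.6% of all tested genes. The 9 genes other than *Abcb11* and *Slco1b2* had a median log2 fold change of -0.04.

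Mature miR-182-5p (chr6:30165962-30165986, minus strand) is shown with its seed, bases 2 to 8, in capitals, because the KO mice lack 1 of its alleles.
miR-182-5p: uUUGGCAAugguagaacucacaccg

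The 7-letter match to the seed, TTGCCAA, was sought on the transcript strand in the longest 3′ UTR of each gene. It was present in 12.0% of 12503 tested genes and in 1 of the 10 transporters, *Slco2b1*, at 88 bases after the stop codon. The site is given with its flanks and the match in capitals.
*Slco2b1*, chr7:99659936-99659963, minus strand: ctctgagcgtTTGCCAAcaatgggcaaa

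The level of *Slco2b1* hardly differed between the libraries, with a log2 fold change of 0.08 (-0.03 to 0.19). The remaining transporters had no such match in that UTR. The match was not sought in promoters or in other parts of the transcripts. Direct action of the miRNA on the transporters was not tested.

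All 10 transporters passed the filter of 10 counts over both libraries. In the KO library 2 of them were at least 2-fold higher, *Abcb11* and *Slco1a1*, and 4 were at least 2-fold lower, *Slco1a4*, *Abcc3*, *Abcc4* and *Slc51b*. The other 4, *Slc10a1*, *Slco1b2*, *Slco2b1* and *Abcc2*, stayed within 2-fold. Over all 13561 tested genes, 9.46% were at least 2-fold higher and 9.94% at least 2-fold lower. With total counts 1 transporter was higher and the same 4 were lower, while 4.6% of all tested genes were higher and 26.6% lower. The median log2 fold change of the 10 transporters was -0.06, near the 0.00 of all tested genes, while single transporters lay between -2.64 and 1.62. In bulk liver, fewer cells of a type and less RNA per cell cannot be told apart.

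**Figure D1:**
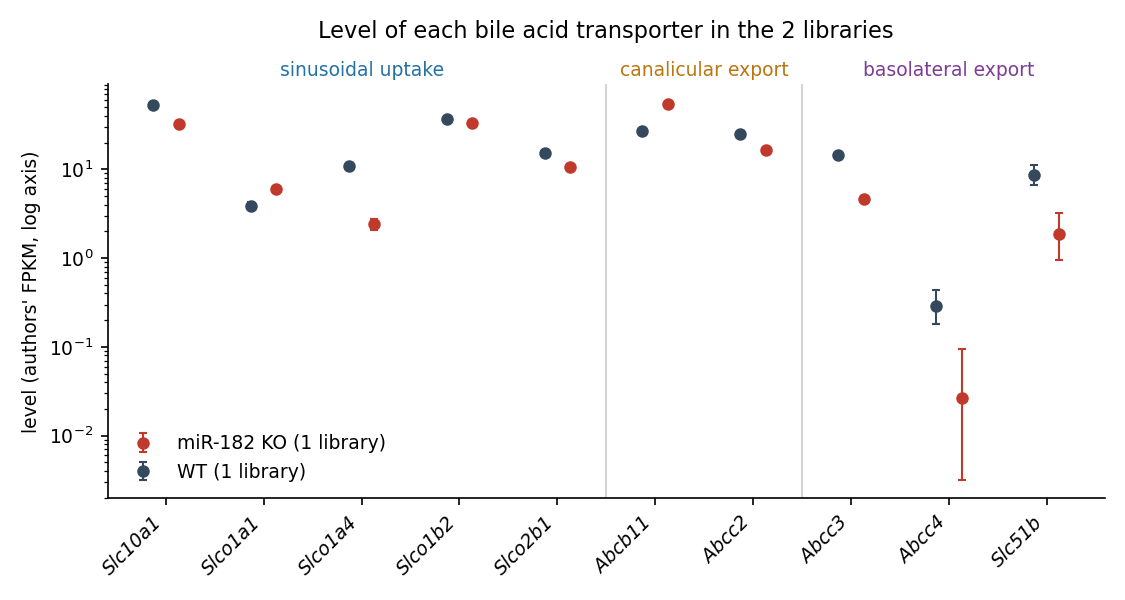
Level of the 10 transporters in the WT and KO libraries, as the authors' FPKM on a log axis, with points for single libraries and bars for exact 95% Poisson intervals of the counts. *Abcb11* had rank 3 in WT and rank 1 in KO, while *Abcc4* was the lowest in both.

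Among the uptake carriers, *Slc10a1*, which encodes NTCP, the main sodium-dependent carrier of conjugated bile acids, was little different. It had 715 counts in KO and 1166 in WT, or 32.2 and 52.9 FPKM. The log2 fold change was -0.11 (-0.25 to 0.02). NTCP had the highest FPKM of the 10 transporters in WT and rank 3 in KO.

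*Slco1b2* encodes Oatp1b2, the liver-specific Oatp that carries unconjugated bile acids and many drugs. It had 2613 counts in KO and 2886 in WT, at 33.1 and 36.8 FPKM. Its log2 fold change was 0.45 (0.37 to 0.53), under 2-fold, and it had rank 2 by FPKM in both libraries. Within each library, *Slc10a1* stood at 0.975 times the FPKM of *Slco1b2* in KO and at 1.44 times in WT. The ratio of the counts in KO to that in WT was 0.677 (0.608 to 0.755), which no scaling of the libraries can alter. By FPKM *Slc10a1* thus led *Slco1b2* in WT, and both stood at nearly the same level in KO. This order rests on the lengths that the FPKM imply, 1.67 kb for *Slc10a1* and 5.96 kb for *Slco1b2*. The longest transcripts of the 2 genes have 1749 and 3307 bases, so the order could differ with other lengths.

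*Slco1a1* encodes Oatp1a1, a carrier of bile salts and steroid conjugates that is higher in male than in female mouse liver. It had 609 counts in KO and 387 in WT, at 6.04 and 3.86 FPKM, and rose by 1.25 on the log2 scale (1.06 to 1.43). It was the single uptake carrier with more raw counts in KO than in WT, but it stayed short of 2-fold when scaled by total counts, at 0.64.

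*Slco1a4* encodes Oatp1a4, a carrier of bile salts and cardiac glycosides that is found around central veins. It had 228 counts in KO and 1025 in WT, at 2.40 and 10.8 FPKM, so its log2 fold change was -1.57 (-1.79 to -1.37). It lay beyond 2-fold also with total counts, at -2.18, which is further below the median of all genes than any other uptake carrier.

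*Slco1a1* and *Slco1a4* are neighbours in the *Slco1* cluster, both on the minus strand, at chr6:141907282-141946962 and chr6:141805440-141856199. They changed in opposite directions. *Slco1a1* was at 0.356 times the FPKM of *Slco1a4* in WT and at 2.52 times in KO, so the order of the pair turned over. The ratio differed 7.07-fold between the libraries (5.81 to 8.61). Of the 51-base words in the longest *Slco1a1* transcript 2.18% occur in another gene, mostly *Slco1a4*, and of those in *Slco1a4* 2.60% do, mostly in *Slco1a5*, which had no counts in either library.

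*Slco2b1* encodes Oatp2b1, a widely expressed carrier of steroid sulfates. It had 1164 counts in KO and 1664 in WT, at 10.6 and 15.2 FPKM, and held rank 5 among the transporters in both. Its antisense neighbour *Gm15635*, which shares 7.55% of the words, had 0 and 4 counts.

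Over the 5 uptake carriers, 1 was at least 2-fold higher and 1 at least 2-fold lower, and the median log2 fold change was 0.08. With total counts this median was -0.52, close to that of all genes on the same scale. Their summed FPKM was 84.3 in KO and 120 in WT.

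In the canalicular route, *Abcb11* was the transporter that rose most. It encodes BSEP, the ATP-driven pump that exports monovalent bile salts into bile and is rate-limiting for their passage through the hepatocyte. It lies at chr2:69238282-69342616 (minus strand) and had 5069 counts in KO and 2487 in WT, at 54.5 and 26.9 FPKM. The log2 fold change was 1.62 (1.55 to 1.69), or 3.07-fold. With total counts it was 1.02, past 2-fold by less than the counting error. Among the 10 transporters its level per length went from rank 3 in WT to rank 1 in KO.

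*Abcc2* encodes MRP2, the canalicular pump for bilirubin glucuronides, glutathione conjugates and divalent bile salts. It lies at chr19:43782192-43840740 (plus strand) and had 2470 counts in KO and 3738 in WT, at 16.6 and 25.2 FPKM. Its log2 fold change was -0.01 (-0.08 to 0.07), so the canalicular carriers parted. *Abcb11* stood at 1.07 times the FPKM of *Abcc2* in WT and at 3.29 times in KO, a ratio that differed 3.08-fold between the libraries (2.87 to 3.31). BSEP made up 51.6% of the summed canalicular FPKM in WT and 76.7% in KO. The antisense gene *Gm13613*, which overlaps *Abcb11*, had no counts.

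**Figure D2:**
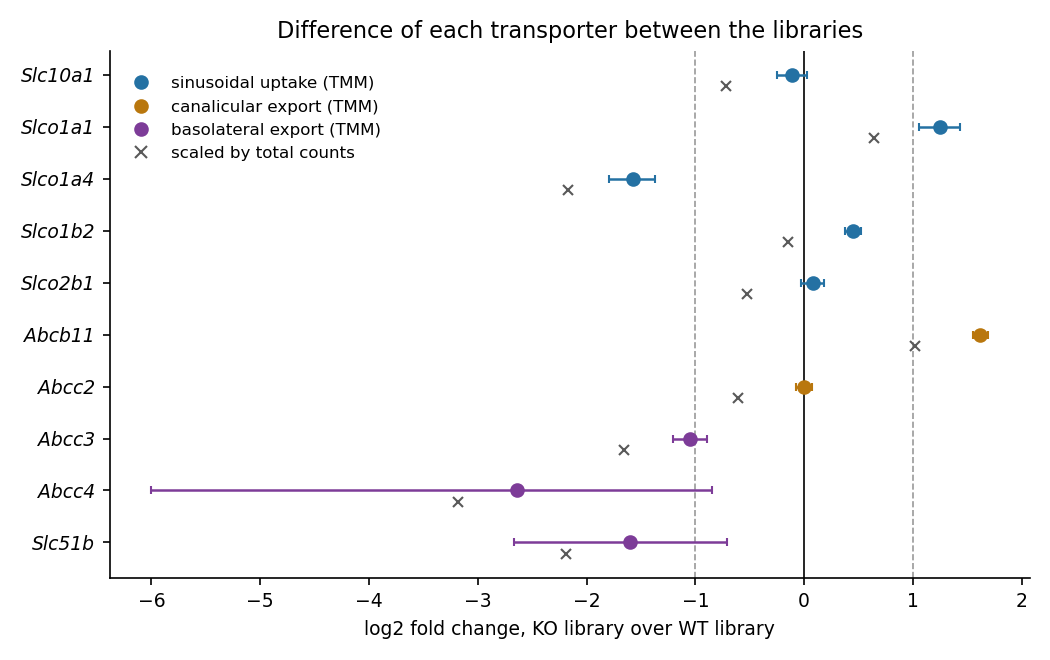
Log2 fold change of each transporter, KO library over WT library, with points for TMM-scaled counts, bars for exact 95% binomial intervals of counting error, crosses for total counts and dashed lines at 2-fold. The 3 basolateral carriers and the uptake carrier *Slco1a4* lie beyond the lower line, and *Abcb11* and *Slco1a1* beyond the upper one. The intervals of the 3 basolateral carriers cross the lower line, and that of *Slco1a4* does not. Total counts move every transporter to the left.

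All 3 basolateral exporters were at least 2-fold lower in the KO library. *Abcc3* encodes MRP3, the basolateral pump for glucuronides and bile salts that is known to increase in cholestasis. It lies at chr11:94343295-94392997 (minus strand) and had 445 counts in KO and 1391 in WT, at 4.59 and 14.4 FPKM. Its log2 fold change was -1.05 (-1.21 to -0.90), or 2.07-fold lower, and its interval reached inside the 2-fold limit. With total counts it was -1.65.

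*Slc51b* encodes OSTβ, the smaller subunit of the organic solute transporter, which moves bile acids down their gradient. It lies at chr9:65412753-65422773 (minus strand) and had 12 counts in KO and 56 in WT, at 1.86 and 8.72 FPKM. The log2 fold change was -1.60, with a wide interval of -2.67 to -0.71. *Slc51a*, which encodes OSTα, the subunit OSTβ needs for transport, had 0 counts in both libraries, which allows a share of up to 2.26e-05% of the counts in KO and 2.28e-05% in WT. *Rasl12*, which overlaps *Slc51b* on the other strand and shares 6.37% of its words, had 6 counts in KO and 0 in WT. In KO this is not small beside the 12 counts of *Slc51b*, and the part of the overlap in them was not tested.

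*Abcc4* encodes MRP4, which returns bile salts to blood together with glutathione. It lies at chr14:118482692-118706219 (minus strand) and was the least abundant of the 10, with 2 counts in KO and 22 in WT, or 0.0263 and 0.292 FPKM. Its KO-to-WT ratio of TMM-scaled counts was 0.137 (0.0156 to 0.558). The size of the difference is therefore poorly known, although the interval lies below 1.

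The median log2 fold change of the basolateral exporters was -1.60, which is 1.68 below that of the uptake carriers. These medians are the values of single genes, *Slc51b* (-2.67 to -0.71) and *Slco2b1* (-0.03 to 0.19). The counting error of *Slc51b* therefore enters the gap. The other basolateral exporters lay on either side of it, *Abcc3* at -1.05 and *Abcc4* at -2.64. Scaling the libraries shifts all genes nearly alike, so it can hardly move this gap, which was 1.66 to 1.68 under the other scalings. Settings that can move the gap gave 1.11 on the log2 scale of FPKM plus 0.1, 1.44 with a prior count of 5 and 1.40 with a minimum of 50 counts. *Abcc3* supplied most of the route's summed FPKM, 61.6% in WT and 70.9% in KO. Within the route the ratios of its members could not be told apart between libraries, since all 3 pairs had intervals that held 1. For *Abcc3* over *Slc51b* the interval was 0.782 to 3.09. In the other routes all 11 pairs had intervals without 1, so their members differed from one another by more than counting error.

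**Figure D3:**
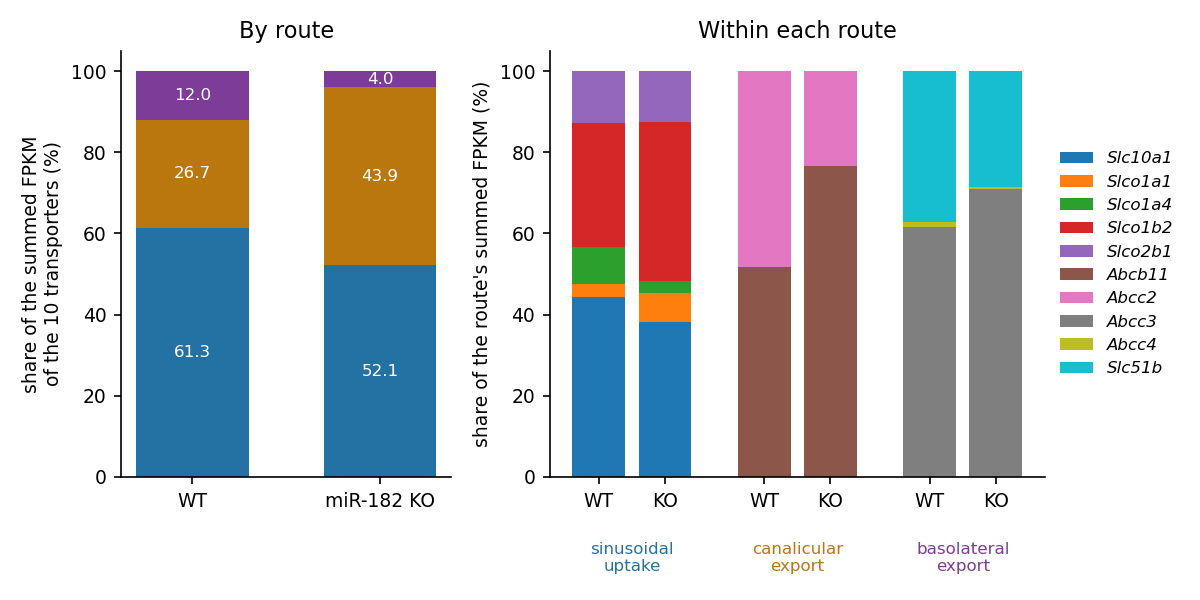
Share of the summed FPKM of the 10 transporters by route (left) and of each route's sum by gene (right), in the WT and KO libraries, with shares in percent. Canalicular export took 26.7% in WT and 43.9% in KO, and basolateral export 12.0% and 4.0%.

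Taking each route as a sum, uptake supplied 61.3% of the transporters' FPKM in WT and 52.1% in KO. Canalicular export supplied 26.7% and 43.9%, and basolateral export 12.0% and 4.0%. The canalicular sum was 0.436 times the uptake sum in WT and 0.842 times in KO, a 1.93-fold difference (1.83 to 2.04). The canalicular sum was 2.22 times the basolateral sum in WT and 11.0 times in KO, a 4.94-fold difference (4.02 to 6.07). Uptake over basolateral export was 5.10 in WT and 13 in KO, a 2.55-fold difference (2.07 to 3.14). These ratios are taken within a library, so the mitochondrial share and the scaling do not enter them. The transcripts of the canalicular route thus made up more, and those of the basolateral exporters less, of the set in the KO library. Of the canalicular pumps, *Abcb11* stood at 26.9 FPKM in WT and 54.5 in KO, but *Abcc2* at 25.2 and 16.6.

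**Figure D4:**
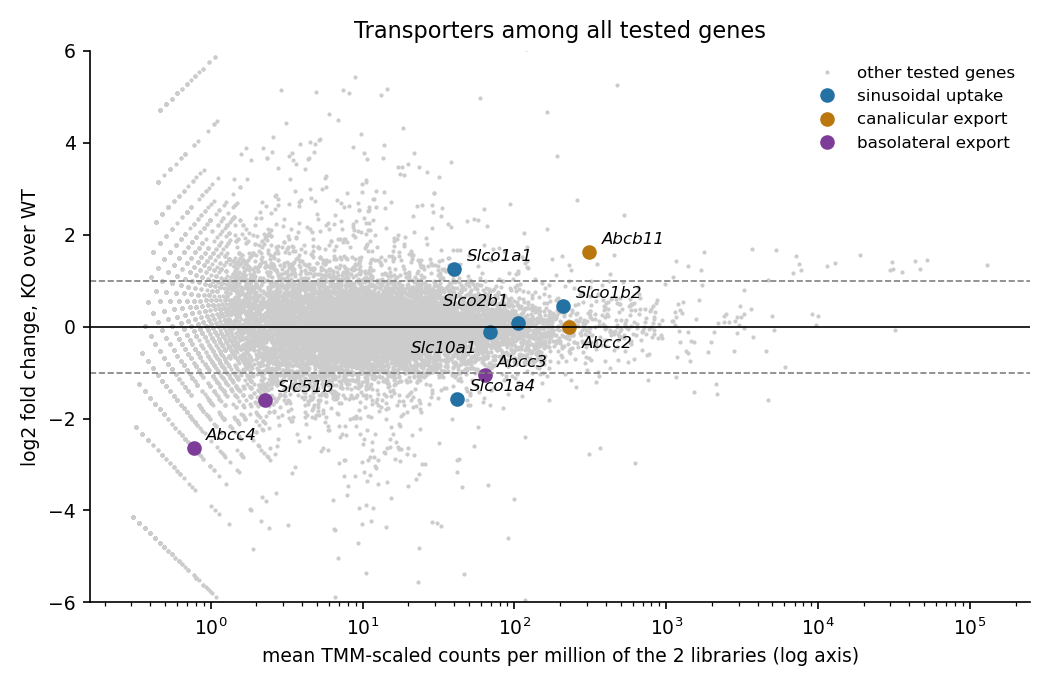
Log2 fold change, KO over WT, against the mean TMM-scaled CPM of the 2 libraries on a log axis, for 13533 tested genes with a unique symbol, with the transporters coloured by route and dashed lines at 2-fold. *Abcb11* had the most counts of the 10 and lay at 1.62, and *Abcc4* lay among genes with few counts, where the spread is wide (28 genes are outside the axis).

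The sensors and regulators of bile acids included 2 genes that were at least 2-fold higher, of 15 tested, and none that was at least 2-fold lower. Their median log2 fold change was 0.05. With total counts 1 was higher and 2 were lower. Beside the counts of this list and of those below, 9.46% of all tested genes were at least 2-fold higher and 9.94% lower. With total counts these shares were 4.6% and 26.6%. *Nr1h4*, which encodes FXR, had 1998 counts in KO and 911 in WT, a log2 fold change of 1.72 (1.61 to 1.84). *Nr0b2*, which encodes SHP, the corepressor that FXR is known to induce, had 238 and 123 counts and a log2 fold change of 1.54 (1.22 to 1.87). With total counts *Nr1h4* and *Nr0b2* stood at 1.12 and 0.94. Whether the activity of FXR differed between the libraries was not tested. *Hnf4a*, a master regulator of hepatocyte genes and the regulator with the most counts, was at 0.05 (-0.01 to 0.12). *Vdr* and *Gpbar1*, a vitamin D receptor and a bile acid receptor of the cell surface, had no counts.

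Of 15 genes for bile acid synthesis and conjugation, 2 were at least 2-fold higher and 1 at least 2-fold lower, with a median of -0.35. With total counts, 1 was higher and 6 were lower, *Cyp8b1* then standing at 0.69. *Cyp7a1*, the rate-limiting enzyme of the classic pathway, had 326 counts in KO and 887 in WT, at -0.85 (-1.04 to -0.67), within 2-fold on this scale and at -1.45 with total counts. *Cyp7b1* and *Cyp8b1*, a hydroxylase of oxysterols and the enzyme that makes cholic acid, were higher at 1.69 and 1.29. *Cyp39a1*, a hydroxylase of 24-hydroxycholesterol, was lower, at -1.62. *Scp2*, a sterol carrier with the most counts of the list, was at 0.54.

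The other pumps of the bile canaliculus gave 2 genes at least 2-fold higher and 2 at least 2-fold lower, of 10 tested, with a median of 0.16. With total counts 1 was higher and 2 were lower. *Slc47a1*, the MATE1 exporter of organic cations, rose from 415 counts in WT to 1748 in KO, by 2.67 on the log2 scale (2.51 to 2.82). *Tmem30a*, the chaperone subunit of phospholipid flippases, had 165 counts in KO and 1508 in WT, at -2.60 (-2.84 to -2.37). *Abcb1b* and *Abcb1a*, which encode P-glycoproteins, were the other 2, at 1.32 and -1.31, with no more than 32 counts. *Abcb4*, the phosphatidylcholine floppase that supplies bile with phospholipid, had the most counts and stayed within 2-fold at -0.35.

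Of 12 scaffold and sorting genes, which tether or traffic canalicular proteins, 1 was at least 2-fold higher and none at least 2-fold lower, with a median of -0.13. With total counts none was higher and 5 were lower. *Vipas39*, needed for sorting to the apical membrane, had 208 counts in KO and 140 in WT, at 1.16 with TMM and 0.56 with total counts. *Slc9a3r1*, which encodes the scaffold NHERF1 and had the most counts, was at -0.52. Of the other bile acid carriers 3 of 6 had any counts and none reached 2-fold, with *Slc10a2*, the apical sodium-dependent carrier of cholangiocytes, at 80 and 172 counts and -0.51 (-0.91 to -0.12). With total counts 2 of these 3, *Slc10a2* and *Slco3a1*, were at least 2-fold lower, at -1.11 and -1.20.

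**Figure D5:**
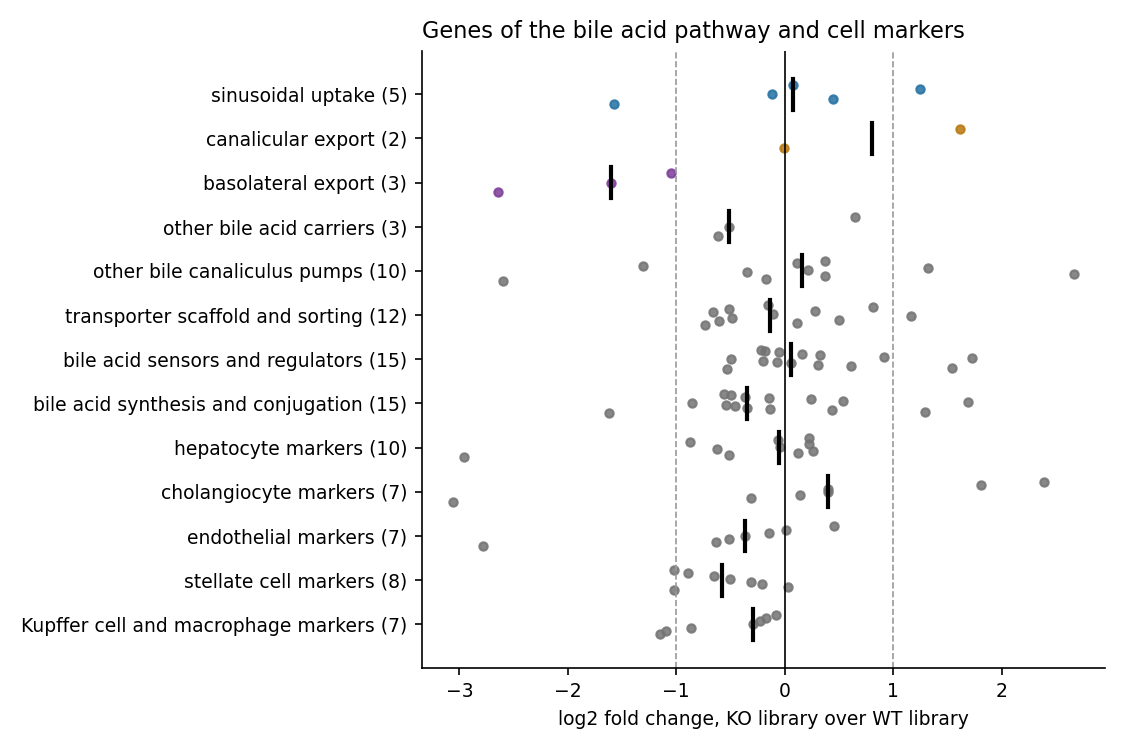
Log2 fold change, KO library over WT library on TMM-scaled counts, of every tested gene in the transporter routes, the other bile acid lists and the cell markers, with the number tested in brackets, black bars at list medians and dashed lines at 2-fold. The basolateral exporters have the lowest median, -1.60. The hepatocyte markers lie within 2-fold apart from *Apob*, and the next lowest of them is *Trf* at -0.87.

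Markers of cell types moved beside these values as follows. Of 10 hepatocyte markers 9 stayed within 2-fold, with a median of -0.05 and a range of -2.96 to 0.26, and the exception was *Apob* (1517 counts in KO and 17808 in WT). With total counts 4 of the 10 were at least 2-fold lower. Of 7 cholangiocyte markers tested, 2 were at least 2-fold higher and 1 lower, with a median of 0.40, and total counts gave the same tally. *Krt19* had 26 and 7 counts, *Krt7* 15 and 6, *Prom1* 8 and 105, *Spp1* 1638 and 1875, and *Cftr* 2 and 0. Their summed counts were 2046 in KO and 2453 in WT. Among the endothelial, stellate and Kupffer cell markers, 5 of 22 were at least 2-fold lower and none was higher, with medians of -0.36, -0.58 and -0.29. With total counts 11 of the 22 were lower, and over all tested genes 9.94% were lower with TMM and 26.6% with total counts. The 5 were *Lyve1*, *Acta2*, *Col1a1*, *Adgre1* and *Marco*, and the summed counts of the 3 lists were 1366, 924 and 1115 in KO against 2032, 2070 and 2263 in WT. *Stab1*, *Col3a1* and *Clec4f*, which had the most counts in each list, were at 0.46, -0.51 and -0.29. The part of these cell types, and of the mitochondrial share, in the transporter values was not tested.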

How the data were processed

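Male mice after 2/3 PH gave 1 poly(A) liver library per genotype, sequenced on an Illumina HiSeq. The authors deposited unnormalized read counts per gene and FPKM that they computed from them. The submitters' processing notes name HISAT2 2.0.4, StringTie and edgeR, and the human build hg38, although the identifiers are those of mouse genes. Of 34745 identifiers, 34267 are in GENCODE M21 (GRCm38), and 80.8% of those share its coordinates. Whether counting used strand is not given in the sources used here.

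A gene entered the comparison if its counts in the 2 libraries summed to 10 or more (13561 genes). Counts were scaled by TMM (edgeR 4.0.16 in R 4.3.3), and log2 fold changes used a prior count of 0.5. Intervals are exact 95% binomial (log2 fold changes), exact conditional (ratios of gene pairs), Poisson (FPKM) or delta-method (route sums) intervals, for counting error only. PCR reads are not independent molecules. A count of 0 was given a limit of 3 counts. Python 3.11.15, numpy 2.4.6, pandas 2.3.3 and scipy 1.17.1 were used. On simulated data the steps recovered 200 of 200 changed genes among 13737. The simulated counts had Poisson spread only, the changed genes had at least 50 counts in WT and a large fixed change, and total counts were used for scaling. The simulation therefore does not bear on TMM, on genes with few counts or on spread between mice.

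The 10 transporters and all gene lists were chosen with earlier results of these data known. From each list and gene family the text names genes that changed at least 2-fold with at least 50 counts in the higher library, up to 4 per direction, and the gene with the most counts, besides *Slc51a*, *Nr1h4*, *Nr0b2* and *Cyp7a1*. Genes outside this rule were named after their values were seen. Alternatives were total counts, DESeq2 1.42.0 size factors, the upper quartile, totals without mitochondrial genes, a prior count of 5, log2 FPKM after adding 0.1, and minimums of 1 or 50 counts.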

Additional observations from a re-analysis of the deposited data

How the results depend on the processing

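No paired analysis was possible because a genotype is represented by a single library, and for the same reason no replicate could be left out. With total counts the uptake median was -0.52, the canalicular mean 0.21 rather than 0.81, 1 transporter was at least 2-fold higher, and over all genes 624 were higher against 3605 lower, 85.2% of the calls being lower against 51.2% with TMM. FPKM with a pseudocount of 0.1 gave an uptake median of -0.52, a canalicular mean of 0.21, 1 transporter higher, and 405 genes higher and 2934 lower (87.9% lower). In both settings the lost call was that of *Slco1a1*, and *Slco1b2* and *Slco2b1* changed sign within 2-fold. The gap between the uptake and basolateral medians, 1.68, was 1.11 with that FPKM setting, 1.44 with a prior count of 5 and 1.40 with a minimum of 50 counts. Totals without the mitochondrial genes gave a canalicular mean of 0.72. Over all genes, a minimum of 1 count gave 2289 higher and 2752 lower, from more genes tested, and a minimum of 50 counts gave 642 and 766, from fewer genes tested, with *Abcc4* below that minimum. The 4 transporters that were lower kept their call in every setting that tested them. The upper quartile changed the sign of *Abcc2*, and totals without mitochondrial genes that of *Slco2b1*, both near 0. Depth limits *Abcc4* and *Slc51b*, with 2 and 12 counts in KO.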

Other observations

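The gene families of the transporters held few other members that differed. Over all tested genes 9.46% were at least 2-fold higher and 9.94% lower, or 4.6% and 26.6% with total counts. Of 15 *Slco* genes listed, 6 passed the filter, and *Slco1a1* and *Slco1a4* were the only ones past 2-fold among those 6, while with total counts none was higher and 2 were lower. Within the cluster on chromosome 6, *RP24-309B5.2*, which lies between them, had 6 counts in KO and 38 in WT (-2.0), while *Slco1c1* had 0 and 7 and *Slco1a5* and *Slco1a6* had none. Of 9 *Abcb* genes tested 3 were at least 2-fold higher and 1 was lower, the fourth call besides *Abcb11*, *Abcb1b* and *Abcb1a* being *Abcb9*, a lysosomal peptide transporter with 53 and 26 counts (1.60). With total counts *Abcb9* stood at 1.00, and 2 *Abcb* genes were higher and 1 was lower.

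Of 9 *Abcc* genes tested, *Abcc3* and *Abcc4* were at least 2-fold lower and none was higher. *Abcc6*, a basolateral hepatocyte transporter that is not known to carry bile acids and was nearly as abundant as *Slco1b2* per length in the KO library, at 29.4 FPKM, had 2421 and 2432 counts and a log2 fold change of 0.59 (0.50 to 0.67). With total counts 4 *Abcc* genes were lower. None of 5 *Slc10a* and 5 *Abcg* genes tested reached 2-fold, with *Slc10a1* at -0.11 and *Abcg5*, a sterol exporter, at 0.21. With total counts 1 of each family was at least 2-fold lower, *Slc10a2* at -1.11 and *Abcg3* at -1.07. The 2 genes that were at least 2-fold lower among those with an IR-1 match of at most 1 mismatch were *Rdh9*, with 10 counts in KO and 734 in WT, and *Nbr1*, with 107 and 1204.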
